A study of Mus musculus with 19 samples.

Results

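TRBJ1-2, TRBJ1-3, TRBJ1-4 and TRBJ1-5 are 4 of the 11 joining (J) segments of the mouse T cell receptor beta chain that were listed in this data set of sorted CD4+ T cells. They were chosen by name: every entry whose J segment was one of them was taken from all 19 libraries. An entry is a CDR3 amino acid sequence with its V segment, its J segment and a read count. The 4 segments held 563269 of 2146950 entries, and 41651589 of 145647255 reads or 28.6%. TRBJ1-4 had 236713 entries, TRBJ1-3 155377, TRBJ1-2 111208 and TRBJ1-5 59971. The other listed J segments were TRBJ1-1 and the TRBJ2 cluster. TRBJ1-6 was in no listed entry.

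All mice were BALB/c, and cells were sorted on day 7 after surgery or immunization. After myocardial infarction (MI), made by tying off the left anterior descending coronary artery, CD4+ T cells came from the collagenase-digested heart (n = 3, 5000 cells each) and from the mediastinal lymph nodes that drain it (n = 3). Mediastinal nodes after a sham operation, a thoracotomy in which the artery was not tied, served as their control (n = 4), and all operated mice received buprenorphine. Axillary nodes were taken after subcutaneous injection of cardiac myosin from pig (n = 2, 100 µg) or an extract of mouse heart (n = 3, 1 mg), each in Titermax Gold adjuvant, or of adjuvant alone (n = 4). Every node library was made from 500000 cells. The adjuvant volume of the immunized mice was either of a pair of values not assigned to samples, so antigen and volume cannot be told apart. Nothing in the labels ties a library to a single animal, so p-values measure only the spread between these libraries. Since only T cell receptor beta transcripts were amplified, no marker of the sorted cell type or of another cell type could be examined.

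A beta chain gene is assembled in the thymus by joining a V, a D and a J segment, and the junction encodes the CDR3 loop that contacts the peptide held by an MHC molecule. The J segment supplies the last residues of that loop, so the choice of J sets how the CDR3 ends, while bases trimmed or added at the joints set its middle. The locus carries a D segment ahead of each of its J clusters. TRBD1 lies upstream of both clusters and can join to either, whereas TRBD2 lies between them, downstream of the TRBJ1 segments.

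Each J segment left a recognisable end in its CDR3s, printed here because the results on trimming and on D segments rest on it. CDR3s are printed as the tables give them, so they lack the conserved residues at either end of the loop. The ends below are the commonest residue at each of the last positions of that segment's CDR3s.
TRBJ1-2: NSDYT
TRBJ1-3: SGNTLY
TRBJ1-4: SNERLF
TRBJ1-5: NNQAPL
The last residue was the one shown in 99.91% of TRBJ1-2, 99.97% of TRBJ1-3, 99.92% of TRBJ1-4 and 99.92% of TRBJ1-5 CDR3s. At the residue nearest the junction agreement was 55.7%, 55.7%, 34.5% and 31.9% in the same order of segments. Agreement was lower toward the junction, and to a different extent in each segment. These shares are over distinct CDR3s pooled across libraries, 54055, 73468, 119095 and 34669 at the last residue. The shares of entries given next are means over node libraries, so their base differs.

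TRBJ1-2 and TRBJ1-3 kept their end more often than TRBJ1-4 and TRBJ1-5. Over the 16 node libraries the whole end was present in 62.7% ± 2.14 of TRBJ1-2 entries and in 60.4% ± 1.39 of TRBJ1-3 entries (SD, n = 16). It was present in 38.3% ± 1.15 of TRBJ1-4 and in 36.1% ± 1.82 of TRBJ1-5 entries. The library ranges did not meet between these pairs: 58.3% to 65.1% and 58.0% to 63.6% for TRBJ1-2 and TRBJ1-3, against 35.4% to 40.4% and 30.9% to 38.8% for TRBJ1-4 and TRBJ1-5. A single residue was missing in 32.7% of TRBJ1-2 and 34.8% of TRBJ1-3 entries, which then ended in SDYT or GNTLY. Loss of 2 residues was frequent in TRBJ1-4 (20.7% ± 0.527, ending in ERLF) and TRBJ1-5 (19.7% ± 1.78, ending in QAPL) and infrequent in TRBJ1-2 (4.05%) and TRBJ1-3 (2.84%). TRBJ1-5 was the segment of the 4 with the largest share of 3 lost residues, 6.42% ± 0.788. Ends were compared as amino acids, so trimmed bases that were replaced without changing the residue are not seen.

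**Figure D1:**
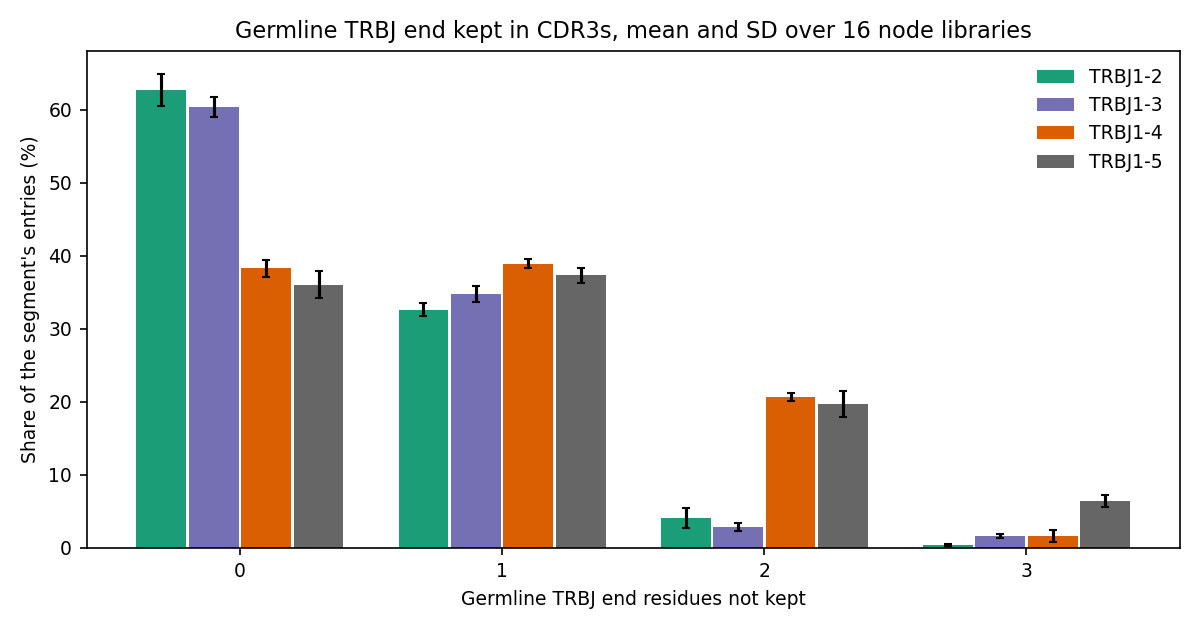
Bars give the mean share of a segment's distinct entries (y axis, %) that lack 0 to 3 residues of the germline J end (x axis), with the SD over 16 node libraries. TRBJ1-2 and TRBJ1-3 keep the whole end in 62.7% and 60.4% of entries, TRBJ1-4 and TRBJ1-5 in 38.3% and 36.1%.

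CDR3 length differed between the segments. Mean lengths in nodes were 11.62 residues for TRBJ1-2, 12.45 for TRBJ1-3, 12.38 for TRBJ1-4 and 11.83 for TRBJ1-5, with SDs over libraries of 0.0332 to 0.0509. The stretch before the kept end averaged 7.05 residues in TRBJ1-2, 6.91 in TRBJ1-3, 7.25 in TRBJ1-4 and 6.81 in TRBJ1-5. TRBJ1-4 therefore combined the heavier loss of its end with the longest remaining stretch of the 4 segments, whereas TRBJ1-5 combined a similar loss with the shortest.

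Residues readable from the D segments separated the 4 segments, and TRBJ1-1 with them, from the TRBJ2 cluster. TRBD1 was read as GQG or DRG and TRBD2 as GLG or DWG anywhere in the CDR3, and the share of distinct entries with a reading was set against that of all TRBJ2 entries of the same library. TRBD2 readings were present in 0.386% ± 0.0889 of TRBJ1-2, 1.33% ± 0.310 of TRBJ1-3, 0.381% ± 0.0646 of TRBJ1-4 and 0.359% ± 0.109 of TRBJ1-5 entries, against 9.02% ± 0.336 of TRBJ2 entries (SD, n = 16 libraries). The share was lower in every member than in TRBJ2 in each of the 16 libraries. A two-sided sign-flip permutation test gave p = 3.05e-05 for each, the smallest it can give, and an adjusted p of 3.49e-05 over 8 such tests. TRBD2 lies downstream of the TRBJ1 segments, so the order of the locus set this direction before testing. The p-values are therefore no evidence for a trait of these 4 segments. TRBJ1-1, the other listed TRBJ1 segment, stood at 0.466% ± 0.0934, so a low share was not particular to them.

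The higher value of TRBJ1-3 lay in entries that had lost a single residue and kept GNTLY, of which 3.24% had a TRBD2 reading. There the G of the J end completes the motif GLG. When readings were searched only before the kept end, an alternative added after seeing the data, the share in those entries was 0.470% and that of all TRBJ1-3 entries was 0.388% ± 0.132, beside the 0.386% of TRBJ1-2.

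TRBD1 readings ran the other way. They were present in 8.47% ± 0.433 of TRBJ1-2, 8.89% ± 0.612 of TRBJ1-3, 11.1% ± 0.609 of TRBJ1-4 and 8.03% ± 0.973 of TRBJ1-5 entries, against 6.19% ± 0.195 of TRBJ2 entries. Searched only before the kept end, TRBJ1-3 stood at 8.48% ± 0.548, beside 8.47% for TRBJ1-2. TRBJ1-1 stood at 9.10% ± 0.617, above TRBJ1-2, TRBJ1-3 and TRBJ1-5, so a mean above TRBJ2 was not particular to the 4 segments. The share was higher than in TRBJ2 in 16 of 16 libraries for TRBJ1-2, TRBJ1-3 and TRBJ1-4 (adjusted p 3.49e-05) and in 15 of 16 for TRBJ1-5 (adjusted p 6.10e-05, sign-flip permutation). TRBJ2 segments can join TRBD1 or TRBD2, so the order of the locus favoured this direction before testing too. These p-values are therefore no evidence for a trait of the 4 segments either. With motifs of 2 residues, which 37.5% of TRBJ2 entries held for TRBD1, the TRBD1 difference turned negative in TRBJ1-2, TRBJ1-3 and TRBJ1-5 (-0.476, -2.75 and -0.215 percentage points), while every TRBD2 difference stayed negative.

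**Figure D2:**
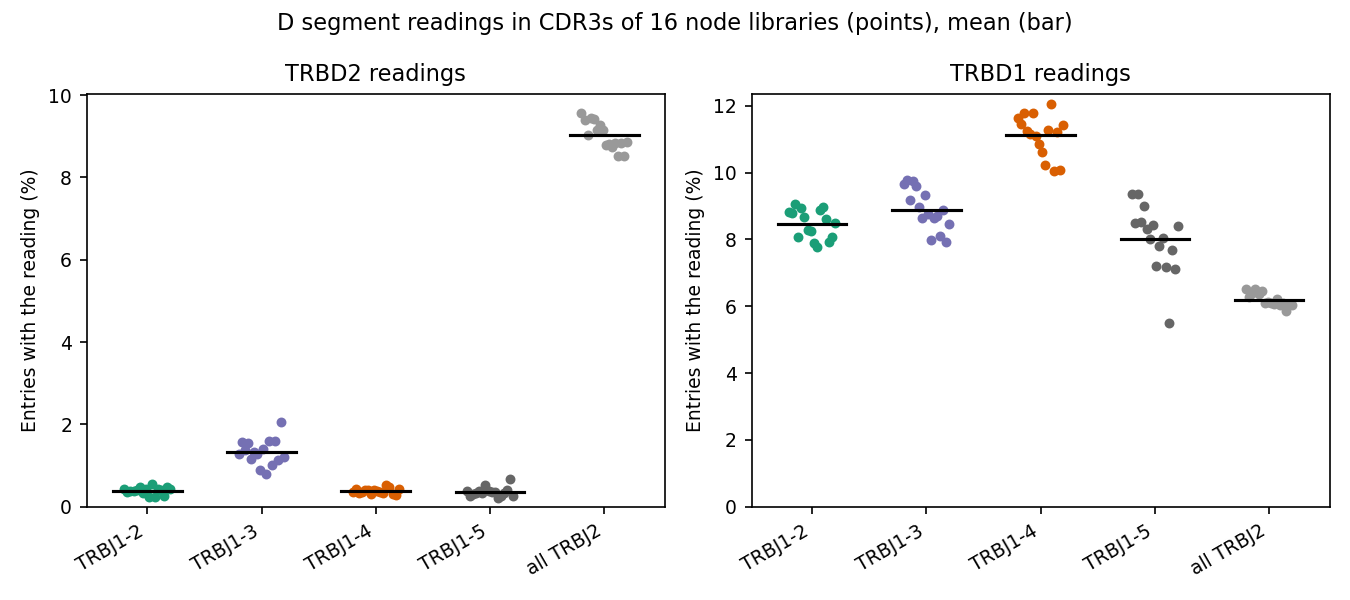
Each point is 1 node library, and the y axis is the share of distinct entries (%) whose CDR3 holds a reading of TRBD2 (left) or TRBD1 (right), for each of the 4 segments and for all TRBJ2 entries together. TRBD2 readings stay at or below 2.05% in the 4 segments and between 8.51% and 9.57% in TRBJ2.

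A J segment can be misnamed where different germline ends look alike. Within a library, 1.28% ± 0.811 of TRBJ1-3 CDR3s (range 0.253% to 2.89%, n = 16 nodes) were also listed with another J segment, and 99.2% of these shared strings were listed with TRBJ2-4, whose CDR3s also end in NTLY. They held 1.90% of TRBJ1-3 reads. The other 3 segments shared no CDR3 string with another J segment in any node.

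In the nodes the 4 segments kept a fixed order of use. TRBJ1-4 was the most used in every node library, followed by TRBJ1-3, TRBJ1-2 and TRBJ1-5. TRBJ1-4 held between 10.7% and 14.2% of node reads, TRBJ1-3 between 7.62% and 9.29%, TRBJ1-2 between 4.22% and 5.17% and TRBJ1-5 between 2.02% and 2.81%. Reads count transcripts, so more cells with a segment and more beta chain RNA per cell cannot be told apart. TRBJ1-3 and TRBJ1-4 held a larger share of reads than of distinct entries in 16 of 16 nodes, with log2 ratios of 0.21 ± 0.0481 and 0.19 ± 0.0693. TRBJ1-2 did so in 1 of 16 nodes (-0.12 ± 0.0778) and TRBJ1-5 in 7 of 16 (-0.13 ± 0.210). TRBJ1-1 did so in 16 of 16 (0.35 ± 0.0808), so a larger share of reads was not particular to TRBJ1-3 and TRBJ1-4.

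The segments did not combine evenly with V segments. For each library the reads of a V-J pair were divided by the reads expected from the totals of its V and its J, and the log2 of that ratio is called the pairing ratio here. Among the 16 V segments with at least 0.5% of node reads, TRBJ1-2 departed most from even pairing: its median absolute pairing ratio was 0.55, the highest of the 11 J segments, against 0.32 for TRBJ1-3, 0.13 for TRBJ1-4 and 0.32 for TRBJ1-5. The pairing ratios are descriptions, and the V and J totals of a library tie them to each other.

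TRBJ1-2 paired above expectation with TRBV15 and TRBV20 and below it with TRBV5 and TRBV14. TRBV15 (Vβ12) had a pairing ratio of 0.99 ± 0.211 and TRBV20 (Vβ15) of 0.80 ± 0.117, each above 0 in 16 of 16 nodes. TRBV20 held 6.38% of TRBJ1-2 reads and 3.67% of all reads. TRBV5 (Vβ1) had -1.11 ± 0.167, below 0 in every node: it held 9.30% ± 1.02 of TRBJ1-2 reads and 20.02% of all reads. TRBV14 (Vβ13) had -0.66 ± 0.158 and held 8.38% of TRBJ1-2 reads against 13.2% of all reads. Counted over distinct entries in place of reads, the pairing ratios of these 4 pairs were 0.56, 0.54, -0.99 and -0.81.

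TRBJ1-3 and TRBJ1-4 shared their poorest partner. TRBV16 (Vβ11) had a pairing ratio of -1.88 ± 1.03 with TRBJ1-3 and -1.94 ± 0.648 with TRBJ1-4, below 0 in all 16 nodes for both. The lowest library value was -4.94 for TRBJ1-3 and -3.20 for TRBJ1-4. TRBV16 held 1.27% of node reads, so its pairs rested on few entries, and over distinct entries the values were -1.73 and -1.52. TRBV17 was the next lowest for TRBJ1-3 (-0.61 ± 0.268) and TRBV15 for TRBJ1-4 (-0.71 ± 0.321, below 0 in 15 of 16 nodes). The V segments most favoured by TRBJ1-3 were TRBV13-2 (0.37 ± 0.0861) and TRBV19 (0.36 ± 0.0568), each in 16 of 16 nodes. TRBV19 (Vβ6) held 30.0% ± 1.77 of TRBJ1-3 reads against 23.4% of all reads. TRBJ1-4 stayed close to even pairing apart from TRBV16, TRBV15 and a few others. Its highest values were 0.32 ± 0.101 with TRBV1 and 0.13 ± 0.0738 with TRBV13-1. Over distinct entries TRBV13-1 was at 0.017 with TRBJ1-4, above 0 in 7 of 16 nodes, and the highest were TRBV1 (0.26) and TRBV19 (0.18). There TRBV15 was at -0.81 with TRBJ1-4, and the highest with TRBJ1-3 were TRBV19 (0.32) and TRBV20 (0.30), while TRBV13-2 was at 0.18.

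TRBJ1-5 paired above expectation with TRBV29 and TRBV2 and below it with TRBV3 and TRBV1. TRBV2 had a pairing ratio of 0.63 ± 0.280, above 0 in 16 of 16 nodes, and TRBV29 of 0.67 ± 0.587, above 0 in 14 of 16 and as low as -1.12 in a single library. TRBV1 had -0.80 ± 0.404 and held 4.998% of TRBJ1-5 reads against 8.33% of all reads. TRBV3 had -0.83 ± 0.6249 and was above 0 in 1 of 16 nodes. Over distinct entries these ratios were 0.63 for TRBV29, 0.45 for TRBV2, -0.68 for TRBV1 and -0.28 for TRBV3, and TRBV17 (-0.64) and TRBV5 (-0.44) lay below TRBV3. Across the 16 V segments, the pairing profile of TRBJ1-3 resembled that of TRBJ1-4 (Pearson r = 0.89, n = 16 V segments), and TRBJ1-4 that of TRBJ2-2 (r = 0.90). The profile of TRBJ1-2 was most like that of TRBJ1-5 (r = 0.53). These are correlations across V segments that share the same libraries, and TRBV16 lies far out in the TRBJ1-3 and TRBJ1-4 profiles.

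**Figure D3:**
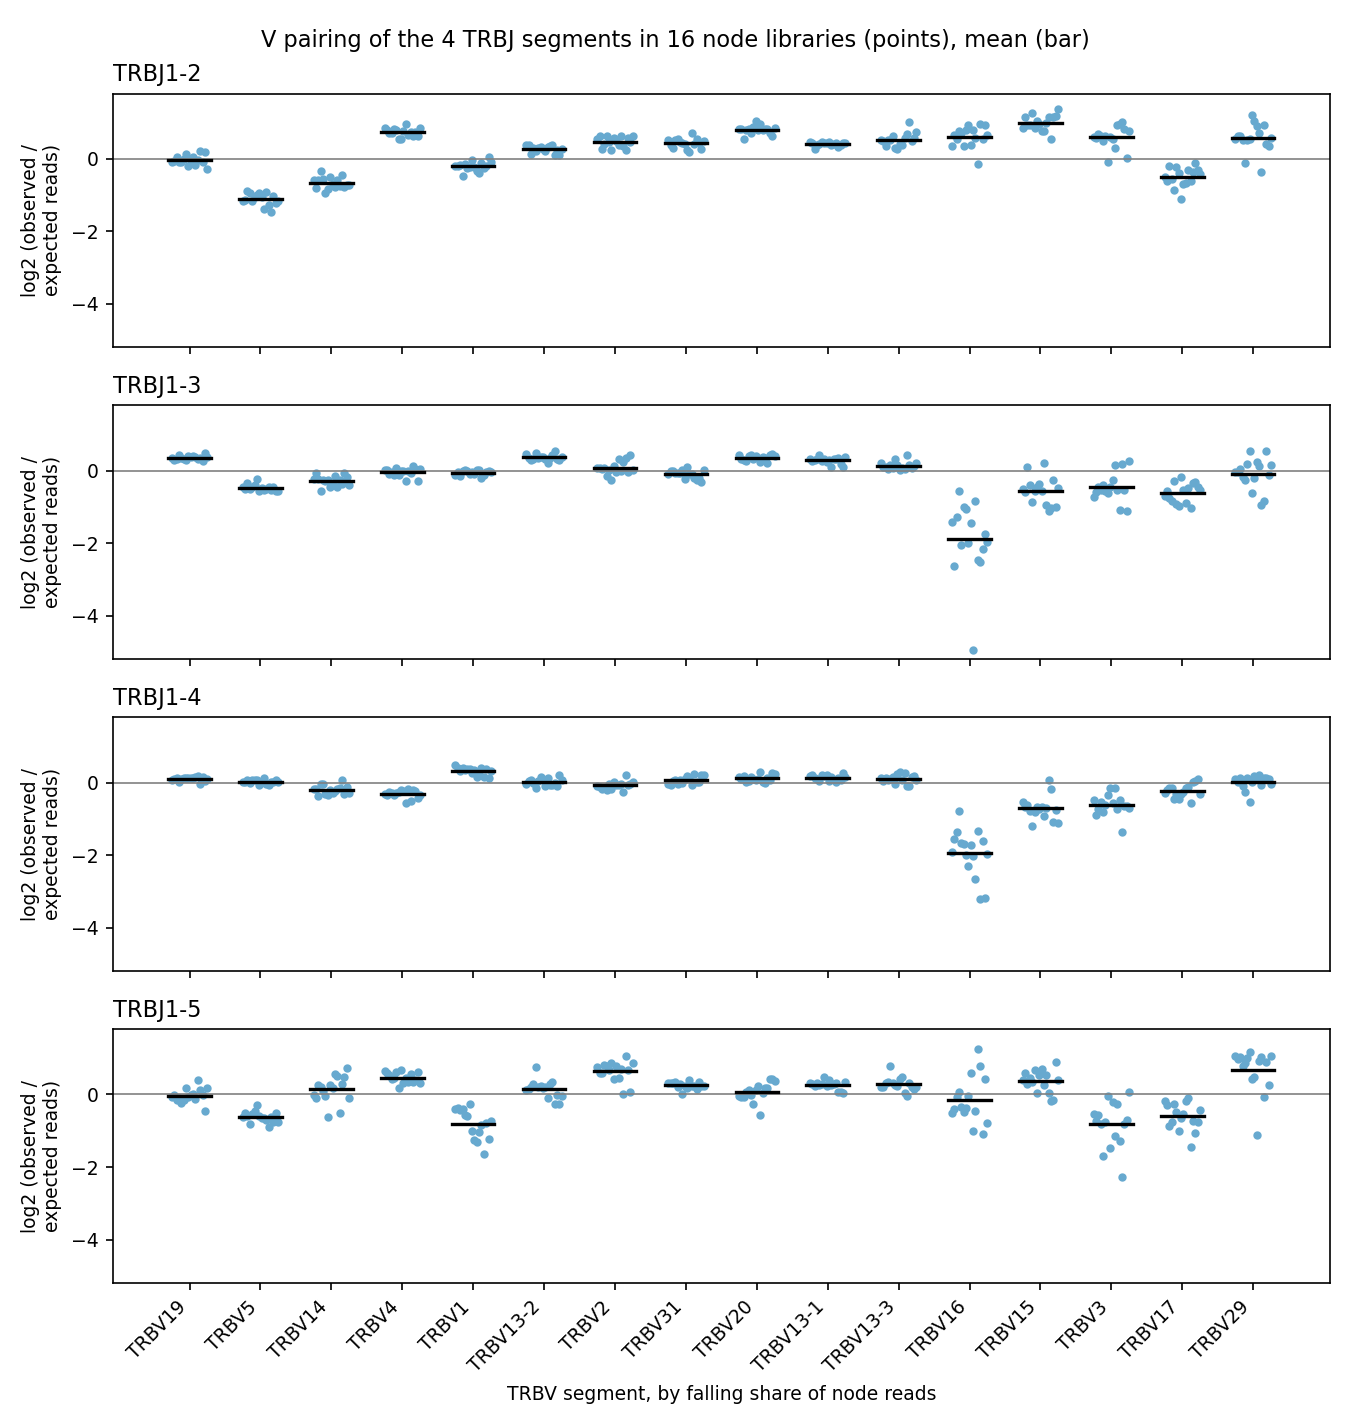
Each point is the pairing ratio, log2 of observed over expected reads (y axis), of a V segment (x axis, ordered by falling share of node reads) in 1 of 16 node libraries, in a panel for each J segment, and bars are means. TRBJ1-2 is lowest with TRBV5 (-1.11) and highest with TRBV15 (0.99), and TRBJ1-3 and TRBJ1-4 are lowest with TRBV16 (-1.88 and -1.94).

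Over the 16 nodes the shares of the 4 segments went up and down together. The log2 share of TRBJ1-2 was most like those of TRBJ1-3 and TRBJ1-4 (Pearson r = 0.79 for both), that of TRBJ1-3 like TRBJ1-4 (0.87) and TRBJ1-1 (0.86), and that of TRBJ1-5 like TRBJ1-4 (0.85) and TRBJ1-2 (0.77). TRBJ1-4 was most like TRBJ1-3 (0.87) and TRBJ1-5 (0.85). The V segments whose share was most alike were TRBV4 and TRBV2 for TRBJ1-2 (0.63 and 0.58) and TRBJ1-5 (0.45 and 0.41), TRBV17 and TRBV4 for TRBJ1-3 (0.73 and 0.71), and TRBV4 and TRBV17 for TRBJ1-4 (0.70 and 0.66). The correlations differed by node site: for TRBJ1-2 with TRBJ1-3 r was 0.96 in the 7 mediastinal nodes and 0.16 in the 9 axillary nodes. In the same order, r with TRBV2 was 0.60 and -0.34 for TRBJ1-2 and 0.27 and -0.67 for TRBJ1-5. With TRBV4 it was 0.24 and 0.39 for TRBJ1-2 and -0.25 and -0.07 for TRBJ1-5. For TRBJ1-3 it was 0.21 and 0.32 with TRBV4 and 0.45 and 0.51 with TRBV17. For TRBJ1-4 it was 0.10 and 0.25 with TRBV4 and 0.47 and 0.15 with TRBV17. These are descriptions over libraries of 5 treatment groups, and shares of a library sum to a fixed total.

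Infarction was compared with sham surgery in the mediastinal nodes. TRBJ1-2 held 4.59%, 4.72% and 5.01% of reads in MI nodes, against 4.83%, 4.26%, 4.28% and 4.22% in sham nodes. Sham node 1 lay within the MI values and the other 3 sham nodes lay below them. The log2 fold change of 0.12 (SE 0.0426) did not pass (adjusted p 0.0675 by edgeR's quasi-likelihood test over 11 J segments). TRBJ1-3 held 8.17%, 8.30% and 8.64% in MI nodes, against 8.29%, 7.92%, 7.66% and 7.62% in sham nodes (log2 fold change 0.09, adjusted p 0.135 by edgeR).

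TRBJ1-4 averaged 12.6% ± 0.0433 in MI nodes and 11.8% ± 0.862 in sham nodes (log2 fold change 0.09, edgeR adjusted p 0.265). TRBJ1-5 averaged 2.38% ± 0.134 in MI nodes and 2.25% ± 0.228 in sham nodes (0.08, edgeR adjusted p 0.407). All 4 fold changes were above 0, and edgeR called 0 of the 4 segments beside a background of 0% of all 11. An unadjusted p under 0.05 was given to 2 of the 4 and to 3 of the 11, and TRBJ1-2 passed with DESeq2 (0.16, adjusted p 0.0171), as 1 of the 11 or 9.09%, and with edgeR's current default settings (0.12, adjusted p 0.0277), as 1 of 2 segments called. Without sham node 1 edgeR called 3 of the 4 (TRBJ1-2, TRBJ1-3 and TRBJ1-4, at 0.17, 0.11 and 0.13), beside 8 of all 11 or 72.7%. Without MI node 1 it called TRBJ1-2 alone of the 11 (0.15).

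No V-J pair of the 4 segments passed between MI and sham nodes. EdgeR called 0 of 88 pairs, beside 0% of all 242. An unadjusted p below 0.05 was given to 4 of the 88 and to 5 of all 242. DESeq2 also called 0 of the 88, beside 0% of all 242. The 4 pairs with the smallest p were TRBV1-TRBJ1-2 (0.370% ± 0.0131 in MI nodes and 0.311% ± 0.0222 in sham nodes), TRBV20-TRBJ1-4 (0.509% and 0.441%), TRBV4-TRBJ1-5 (0.291% and 0.239%) and TRBV4-TRBJ1-2 (0.663% and 0.570%), each with an edgeR adjusted p of 0.992. The median log2 fold change was 0.09 over the 88 pairs and -0.03 over all 242. With the pairing index, in which the expected reads of a pair take the place of the library total, edgeR called 0 of 88 pairs. This stood beside 0% of all 242, and an unadjusted p under 0.05 went to 0 of the 88 and 1 of all 242. The smallest p belonged to TRBV29-TRBJ1-4, TRBV14-TRBJ1-3, TRBV13-2-TRBJ1-5 and TRBV4-TRBJ1-5 (0.24, 0.16, -0.23 and 0.16, edgeR adjusted p 0.989 for each).

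Immunization was compared with adjuvant alone in the axillary nodes. TRBJ1-2 held 5.17% in both myosin nodes and 4.71%, 5.03% and 4.61% in heart extract nodes, against 4.81%, 4.998%, 4.85% and 4.77% in adjuvant nodes. Both myosin nodes lay above the 4 adjuvant nodes and the heart extract nodes overlapped them. TRBJ1-5 held 2.81% and 2.55% in myosin nodes and 2.402%, 2.77% and 2.58% in heart extract nodes, against 2.53%, 2.60%, 2.29% and 2.34% in adjuvant nodes. Neither segment passed: the log2 fold changes for TRBJ1-2 were 0.09 after myosin (edgeR adjusted p 0.551) and -0.02 after heart extract (0.869), and for TRBJ1-5 they were 0.14 (0.551) and 0.08 (0.791).

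TRBJ1-3 averaged 8.52% ± 0.0640 after myosin and 8.77% ± 0.475 after heart extract, against 8.70% ± 0.239 after adjuvant. TRBJ1-4 averaged 13.4% ± 0.236 and 13.3% ± 0.925, against 13.4% ± 0.466. Their fold changes lay between -0.03 and 0.01 (edgeR adjusted p from 0.869 to 0.986). For myosin, for heart extract and for both antigens together, edgeR called 0 of the 4 segments beside 0% of all 11, with 0 unadjusted p under 0.05, and DESeq2 called 0 of the 4 and 0% of the 11. Counted over distinct entries, TRBJ1-5 passed after myosin (log2 fold change 0.20, edgeR adjusted p 0.0384), as 1 of the 11. These comparisons share the adjuvant nodes.

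The V-J pairs of the 4 segments gave no call after immunization either: edgeR called 0 of 88 for myosin, for heart extract and for both antigens, beside 0% of all 242 each time. Unadjusted p under 0.05 numbered 4, 5 and 7 of the 88 in the same order, beside 8, 21 and 21 of all 242. DESeq2 called 0 of the 88 each time, beside 0%, 0.826% and 0.413% of all 242. TRBV5-TRBJ1-4 had the smallest p after heart extract: it averaged 2.57% ± 0.255 of reads in heart extract nodes and 2.94% ± 0.0846 in adjuvant nodes (log2 fold change -0.19, edgeR adjusted p 0.296). TRBV19-TRBJ1-4 averaged 3.64% ± 0.443 and 3.09% ± 0.291 (0.24, edgeR adjusted p 0.387). TRBV20-TRBJ1-4 and TRBV20-TRBJ1-3 followed at -0.19 and -0.15 (edgeR adjusted p 0.429 and 0.514).

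After myosin the smallest p belonged to TRBV13-2-TRBJ1-5, which averaged 0.148% in myosin nodes and 0.103% in adjuvant nodes (0.53), TRBV20-TRBJ1-2 (0.20), TRBV13-1-TRBJ1-5 (0.33) and TRBV23-TRBJ1-5, which had 45 reads in a single myosin node and was listed in no adjuvant node (edgeR adjusted p 0.980 for each). For both antigens together TRBV5-TRBJ1-4, TRBV19-TRBJ1-4, TRBV20-TRBJ1-4 and TRBV13-2-TRBJ1-5 had the smallest p, with log2 fold changes of -0.18, 0.21, -0.17 and 0.47 (edgeR adjusted p 0.353 for the first and 0.387 for the others). The pairing index called 0 of 88 pairs in each of these comparisons, beside 0% of all 242. There 4, 5 and 7 of the 88 had an unadjusted p under 0.05, beside 12, 28 and 24 of all 242. The smallest p went to TRBV13-3-TRBJ1-2 after myosin (-0.38, edgeR adjusted p 0.820), TRBV20-TRBJ1-5 after heart extract (-0.42, 0.289) and TRBV13-2-TRBJ1-5 for both antigens (0.34, 0.415).

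The mediastinal nodes of sham mice were set against the axillary nodes of adjuvant mice. Site, surgery and adjuvant differ together here and cannot be told apart. TRBJ1-2, TRBJ1-3 and TRBJ1-4 were lower in sham nodes. TRBJ1-4 held 12.8%, 12.0%, 11.7% and 10.7% of reads in sham nodes, against 14.1%, 13.4%, 13.1% and 13.2% in adjuvant nodes (log2 fold change -0.19, SE 0.0611, edgeR adjusted p 0.00398). The groups did not overlap. TRBJ1-3 averaged 7.87% ± 0.311 in sham nodes and 8.70% ± 0.239 in adjuvant nodes (-0.14, SE 0.0387, edgeR adjusted p 5.46e-04). TRBJ1-2 averaged 4.40% ± 0.292 and 4.86% ± 0.100 (-0.14, SE 0.0395, edgeR adjusted p 6.41e-04), where sham node 1 at 4.83% lay within the adjuvant nodes. TRBJ1-5 averaged 2.25% ± 0.228 and 2.44% ± 0.146 and did not pass (-0.11, edgeR adjusted p 0.157).

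The 3 lower members stood among 8 of 11 J segments called in this comparison, 72.7%, of which 4 or 36.4% were lower and 4 or 36.4% higher. The other lower segment was TRBJ1-1 (-0.28). The higher ones were TRBJ2-1, TRBJ2-2, TRBJ2-4 and TRBJ2-5, at 0.17 to 0.25. DESeq2 also called 3 of the 4 members and 72.7% of all 11. Shares sum to a fixed total, so a lower share of some segments and a higher share of others are a single measurement.

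Counting distinct entries changed this picture for 3 of the 4 segments. TRBJ1-4 stayed lower, with 10.5% ± 0.182 of entries in sham nodes and 11.8% ± 0.381 in adjuvant nodes. TRBJ1-2 had 5.07% ± 0.109 and 5.05% ± 0.235 of entries, and TRBJ1-3 7.08% ± 0.219 and 7.33% ± 0.0748 (log2 fold change -0.05, edgeR adjusted p 0.143). TRBJ1-5 turned round and passed: it had 2.96%, 2.88%, 2.82% and 2.70% of entries in sham nodes, against 2.29%, 2.51%, 2.26% and 2.41% in adjuvant nodes (0.26, edgeR adjusted p 1.50e-05), and the groups did not overlap. The number of TRBJ1-5 entries differed between libraries, from 1707 to 7664 in sham nodes and from 1211 to 2799 in adjuvant nodes, and its part in this result was not tested.

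**Figure D4:**
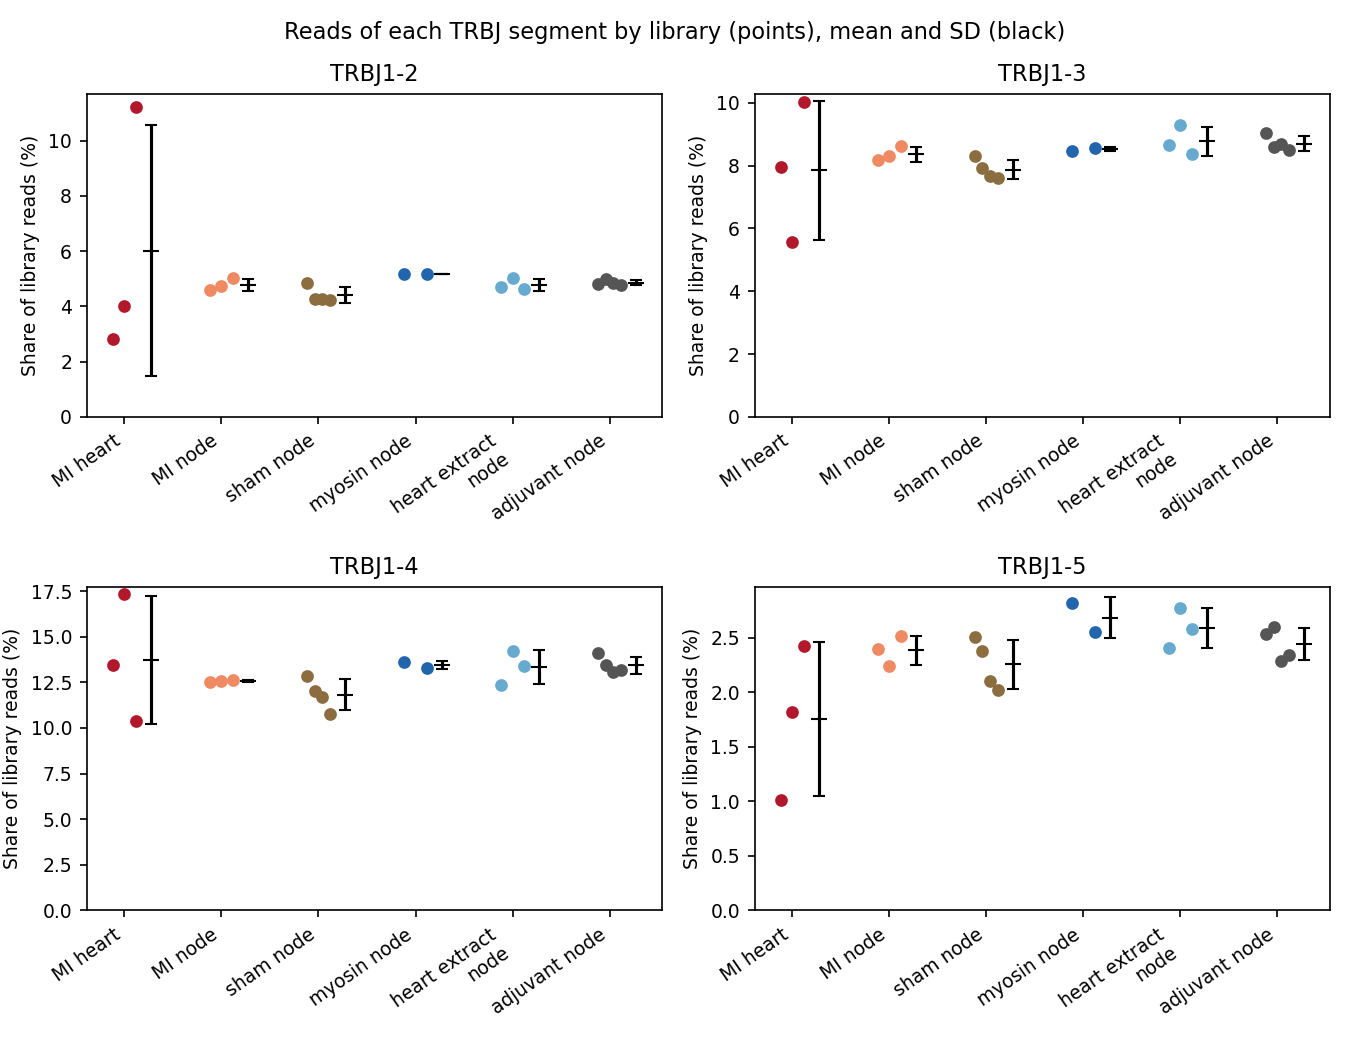
Points are the share of library reads (y axis, %) of each J segment in every library, by group, with the group mean and SD in black beside them. In TRBJ1-4 the 4 sham nodes (10.7% to 12.8%) lie below the 4 adjuvant nodes (13.1% to 14.1%), and the 3 hearts spread wider than any node group in all 4 panels.

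Among the V-J pairs, edgeR called 23 of the 88 pairs of the 4 segments between sham and adjuvant nodes, 18 lower and 5 higher. The background was 28.1% of all 242 pairs, with 11.6% lower and 16.5% higher. TRBJ1-4 had 10 of the 23 calls, TRBJ1-2 and TRBJ1-3 had 5 each and TRBJ1-5 had 3. The calls recurred on a few V segments: TRBV20 and TRBV4 were called with all 4 J segments, and TRBV2 and TRBV16 with TRBJ1-2, TRBJ1-3 and TRBJ1-4. TRBV2-TRBJ1-4 averaged 0.450% ± 0.0568 in sham nodes and 0.678% ± 0.0634 in adjuvant nodes (-0.59, SE 0.0920, edgeR adjusted p 0.00143). TRBV5-TRBJ1-4 averaged 2.37% ± 0.0526 and 2.94% ± 0.0846 (-0.31, SE 0.0579, edgeR adjusted p 0.00307), and the ranges of both pairs did not overlap. TRBV4 was lower with TRBJ1-2 (-0.48), TRBJ1-3 (-0.54) and TRBJ1-4 (-0.53), TRBV20 with TRBJ1-3 (-0.30) and TRBJ1-4 (-0.40), and TRBV2 with TRBJ1-3 (-0.66), with edgeR adjusted p from 0.00300 to 0.00518. Over distinct entries 3 of these 8 pairs did not pass: TRBV20-TRBJ1-3 (-0.039, edgeR adjusted p 0.770), TRBV20-TRBJ1-4 (-0.20, 0.110) and TRBV2-TRBJ1-3 (-0.41, 0.0585). DESeq2 called 34 of the 88 pairs, beside 31.4% of all 242. Without sham node 4 edgeR called 14, beside 21.1% of all 242, and over distinct entries it called 12 of 85, beside 13.9% of 237.

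The V and J totals of each library were then allowed for. With the pairing index edgeR called 0 of 88 pairs, beside 0.413% of all 242. An unadjusted p under 0.05 was given to 11 of the 88 and to 42 of all 242. The smallest p belonged to TRBV13-2-TRBJ1-5 (0.54, SE 0.128, edgeR adjusted p 0.0594) and TRBV1-TRBJ1-5 (0.60, SE 0.165, edgeR adjusted p 0.0779), both with a higher share in sham nodes: 0.141% and 0.142% there, against 0.103% and 0.0933% in adjuvant nodes. TRBV23-TRBJ1-4 followed with 664 reads over the sham nodes and 5 over the adjuvant nodes (edgeR adjusted p 0.159), and TRBV2-TRBJ1-4 at -0.18 (0.173). Over distinct entries 5 of 85 passed, beside 5.06% of 237. Leaving out sham node 3, sham node 4 or adjuvant node 4 gave 1 call each among the member pairs. For these the share of all pairs is not given, so they show no trait of the members.

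Hearts were compared with the MI nodes. The 4 segments varied far more between hearts than between nodes. TRBJ1-2 held 2.83%, 4.003% and 11.2% of reads in hearts 1, 2 and 3, against 4.59%, 4.72% and 5.01% in MI nodes. Heart 3 stood far above the nodes and the other 2 hearts below them. TRBJ1-4 held 13.4%, 17.4% and 10.4% in hearts, against 12.5% to 12.6% in MI nodes. TRBJ1-3 held 7.95%, 5.58% and 10.02% in hearts, against 8.17% to 8.64%, and TRBJ1-5 1.02%, 1.82% and 2.42%, against 2.24% to 2.51%.

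No member differed between hearts and MI nodes beyond this spread: the log2 fold changes were 0.33, -0.09, 0.13 and -0.44 for TRBJ1-2 to TRBJ1-5 (SE 0.571, 0.223, 0.158 and 0.345), and edgeR called 0 of the 4 beside 9.09% of all 11 (adjusted p from 0.576 to 0.751). No member reached an unadjusted p below 0.05, against 2 of all 11, and 0 of the 4 passed with DESeq2, beside 9.09% of the 11. The sign of TRBJ1-2 rested on heart 3: without it the log2 fold change was -0.48. Without heart 2 the signs of TRBJ1-3 (0.10) and TRBJ1-4 (-0.08) also turned.

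A few entries held most of a segment's reads in each heart. The 10 most abundant entries held 78.1% to 82.3% of TRBJ1-2 reads, 47.3% to 78.3% of TRBJ1-3, 53.7% to 71.9% of TRBJ1-4 and 86.0% to 98.6% of TRBJ1-5 reads in hearts. Over all nodes the same share ran from 1.78% to 11.2%, 1.75% to 7.96%, 1.09% to 5.50% and 2.42% to 19.1%. In hearts 1 to 11 entries made up 50% of a segment's reads, and in nodes 60 to 3142. In heart 3 the 10 most abundant TRBJ1-2 entries alone held 8.76% of all reads of the library, of its 11.2% TRBJ1-2 share. Hearts came from 5000 cells and nodes from 500000, and cell number and tissue cannot be told apart.

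**Figure D5:**
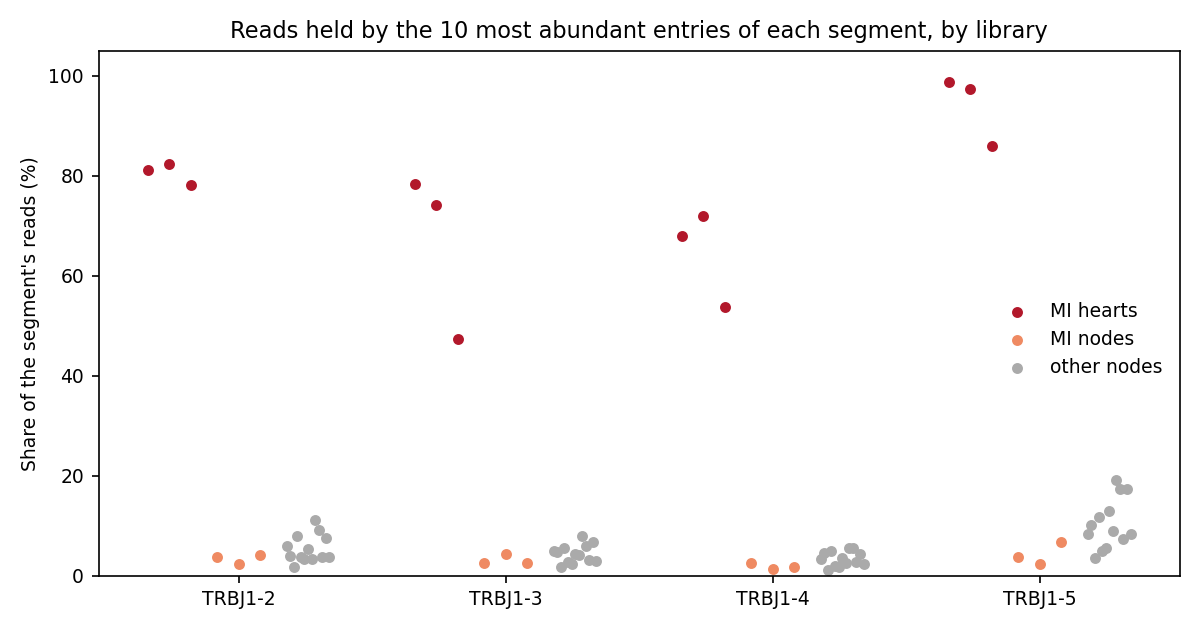
Points give, for each library, the share of a J segment's reads (y axis, %) held by its 10 most abundant entries, with hearts left of the MI nodes and the other nodes. All hearts lie at 47.3% or more and all nodes at 19.1% or less.

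The leading entries of the hearts are printed because they held a large part of each segment's heart reads. They are named with their V segment, and intervals are 95% Wilson intervals, which cover counting error only, since reads of a PCR without molecular identifiers are not independent molecules.
Heart 1, TRBJ1-2 with TRBV2: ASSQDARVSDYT
Heart 2, TRBJ1-2 with TRBV2: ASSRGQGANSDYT
Heart 3, TRBJ1-2 with TRBV14: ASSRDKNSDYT
Heart 1, TRBJ1-3 with TRBV19: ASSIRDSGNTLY
Heart 2, TRBJ1-3 with TRBV19: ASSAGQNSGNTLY
Heart 3, TRBJ1-3 with TRBV19: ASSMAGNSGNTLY
Heart 1, TRBJ1-4 with TRBV19: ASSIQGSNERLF
Heart 2, TRBJ1-4 with TRBV14: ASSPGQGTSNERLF
Heart 3, TRBJ1-4 with TRBV14: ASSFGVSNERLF
Heart 1, TRBJ1-5 with TRBV19: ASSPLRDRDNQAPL
Heart 2, TRBJ1-5 with TRBV19: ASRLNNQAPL
Heart 3, TRBJ1-5 with TRBV19: ASKRTVNNQAPL
None of the 12 was listed with that V and J in a second heart, and TRBV19 carried 7 of them, 3 with TRBJ1-3, 3 with TRBJ1-5 and 1 with TRBJ1-4. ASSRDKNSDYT held 2.83% of the reads of heart 3 (2.82% to 2.85%) and 25.2% of its TRBJ1-2 reads. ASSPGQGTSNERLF held 19.0% of the TRBJ1-4 reads of heart 2, with a TRBD1 reading, GQG, in its middle. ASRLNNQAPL alone made up 52.4% of the TRBJ1-5 reads of heart 2.

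How far these entries reached into nodes differed from entry to entry. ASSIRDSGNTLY had 1.32% of the reads of heart 1 and was listed in 11 of 16 nodes, MI, sham and immunized, with at most 0.0447% in a node. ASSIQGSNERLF and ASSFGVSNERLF were each listed in 10 of 16 nodes. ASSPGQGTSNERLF was listed in a single node, MI node 2, with 1086 reads (0.0128%), and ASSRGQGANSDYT also in MI node 2 alone, with 207 reads. ASKRTVNNQAPL was listed in MI node 3 alone, with 5898 reads (0.0644%), beside 0.635% in heart 3. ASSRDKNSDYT was listed in MI node 2, sham node 2 and myosin node 2, and not in MI node 3. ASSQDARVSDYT, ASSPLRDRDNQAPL and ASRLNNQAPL were listed in no node. The lowest count listed was 2 reads, so an unlisted entry had fewer or was removed before deposit.

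Fewer V segments were listed with each member in hearts. Hearts also held far fewer entries of a member, 52 to 529, against 5733 to 31596 in MI nodes. The part of entry number in this was not tested, and the other J segments were not counted this way. Hearts listed 11 to 15 of 22 V segments with TRBJ1-2, 11 to 14 with TRBJ1-3, 14 to 17 with TRBJ1-4 and 6 to 10 with TRBJ1-5, and the MI nodes listed 21 or 22 with each. TRBV19 was the commonest V segment of all 4 members in all MI nodes. In hearts it held 52.5% ± 5.13 of TRBJ1-5 reads, against 22.5% ± 0.7098 in MI nodes, and 47.2% ± 11.2 of TRBJ1-3 reads, against 29.7% ± 0.883. Much of this lay in single entries. The leading TRBV19 entry held 45.8%, 52.4% and 26.2% of TRBJ1-5 reads in hearts 1, 2 and 3. For TRBJ1-3 the leading TRBV19 entry held 16.6%, 19.8% and 6.35%. The TRBV19 share of TRBJ1-4 reads was 36.3% ± 9.46 in hearts and 25.3% ± 1.11 in MI nodes, and one heart lay within the node range of 24.4% to 26.6%. Its share of TRBJ1-2 reads was 23.3% ± 13.8 in hearts and 23.1% ± 1.83 in MI nodes. The commonest V segment of TRBJ1-2 was TRBV1 in heart 2 (32.3%) and TRBV14 in heart 3 (30.9%), and that of TRBJ1-4 was TRBV14 in heart 2 (46.9%). Over all J segments TRBV19 held 33.2% of heart reads and 23.7% of MI node reads. These values are descriptions.

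Many V-J pairs of the members were listed in the MI nodes and in no heart. Of 85 member pairs with reads in at least 3 of the 6 libraries, 24 had 0 reads in all hearts, beside 46 of all 236 pairs. These 24 passed that filter only through the 3 MI nodes, so the filter fixed the direction of any call, and their calls are given as a description. EdgeR called 22 of the 85 pairs, all lower in hearts, of which 21 were among these 24, beside 22% of all 236 pairs called and 21.2% called lower. Among all pairs with 0 reads in all hearts, 42 of 46 were called. Of the 61 member pairs with reads in a heart, 1 was called, beside 10 of 190 such pairs among all. DESeq2 called 32 of the 85, beside 34.3% of all 236, edgeR without heart 3 called 36, beside 33.1%, and over distinct entries it called 1 of 82, beside 3.06% of 229. With the sample numbers as a block, which pair each heart with an MI node, 0 of 85 passed. When an MI node was left out the 21 pairs were no longer tested, since they had reads in only 2 libraries, so the count of 0 there follows from the filter for them. The node shares of the 21 pairs corresponded to between 0.0177 and 16.5 cells in a sort of 5000, if reads stood for cells. TRBV14-TRBJ1-5 averaged 0.330% ± 0.0753 of MI node reads and TRBV4-TRBJ1-5 0.291% ± 0.00678. Against a floor of 3 reads in each heart library their read shares were at least 3958-fold and at least 3491-fold lower in hearts. If reads stood for cells, their node shares corresponded to only 16.5 and 14.6 cells in a sort of 5000. The bounds therefore hold for reads and cannot be read as fold differences in cells. These bounds are descriptions that cover counting error only, and neither pair passed with the block. TRBV30-TRBJ1-5, TRBV30-TRBJ1-2, TRBV24-TRBJ1-2, TRBV17-TRBJ1-5 and TRBV17-TRBJ1-2, also at 0 reads in hearts, had node shares of 0.0248% or less.

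TRBV5-TRBJ1-4 was the called pair that hearts did contain. It held 0.613% ± 0.142 of heart reads (0.479% to 0.762%) and 2.55% ± 0.0464 of MI node reads (2.52% to 2.60%), so that the groups did not overlap (log2 fold change -2.06, SE 0.276, edgeR adjusted p 0.00863). The log2 fold change was -2.08 with the block but the pair did not pass there (adjusted p 0.304), and it was -0.81 over distinct entries (adjusted p 0.110) and -1.04 without the 100 most abundant CDR3s of each library (adjusted p 0.304 by edgeR). It also did not pass without any single MI node (edgeR adjusted p from 0.466 to 0.515). TRBV5 held 4.85% ± 2.32 of TRBJ1-4 reads in hearts, against 20.2% ± 0.368 in MI nodes. Over all J segments TRBV5 held 12.1% of heart reads and 19.7% of MI node reads.

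The pairing index called 17 of 85 member pairs, beside 12.3% of all 236. Each of the 17 was among the 24 pairs with 0 reads in all hearts, so the filter fixed their direction here too. Among all pairs with 0 reads in all hearts, 26 of 46 were called. Of the 61 member pairs with reads in a heart 0 were called, beside 3 of 190 such pairs among all. With the block 0 passed and over distinct entries 0. Besides pairs named above, TRBV12-1-TRBJ1-3 and TRBV16-TRBJ1-5 were among the 8 with the smallest p, at 0.00245% and 0.0315% of MI node reads.

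CDR3 features were compared between the groups for each member: mean length, the share keeping the whole J end, and the shares with a TRBD1 or a TRBD2 reading. In 4 comparisons 0 of 64 exact permutation tests passed after adjustment over the 16 of a comparison. The smallest p in the node comparisons was that of TRBJ1-4, which kept its whole end in 39.1% ± 0.458 of entries in sham nodes and 37.6% ± 0.699 in adjuvant nodes (exact permutation p = 0.0286, the smallest 4 against 4 can give, adjusted p 0.457). In hearts TRBJ1-2 kept its end in 49.8% ± 16.1 of entries, against 64.2% ± 0.712 in MI nodes, and TRBJ1-3 in 45.8% ± 5.87, against 60.5% ± 0.246. The 3 hearts lay below the 3 MI nodes for both. TRBJ1-4 kept its end in 39.5% ± 10.7 of entries in hearts and 38.7% ± 0.213 in MI nodes, and TRBJ1-5 in 27.3% ± 13.8 and 37.0% ± 1.05, where the groups overlapped. Hearts and MI nodes also lay apart for the mean length of TRBJ1-2 (11.81 and 11.63 residues) and for TRBD2 readings in TRBJ1-3 (0.349% and 1.41%), so 4 of 16 features had groups that did not overlap. These heart readings were 0%, 0.364% and 0.683% of 216, 275 and 439 entries, so they rested on very few entries. Searched only before the kept end, the heart values stayed the same and the 16 nodes ran from 0.213% to 0.692%. An exact permutation test of 3 against 3 cannot go below 0.1, which is also how often random labels set such groups fully apart. The tests did not use the sample numbers that pair hearts with MI nodes, and other J segments were not compared this way.

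Some entries recurred between nodes. Of the distinct node entries, 19.2% of TRBJ1-2, 21.1% of TRBJ1-3, 19.7% of TRBJ1-4 and 14.7% of TRBJ1-5 were listed in more than 1 node. TRBJ1-3 had 16 entries in all 16 nodes, TRBJ1-4 13, TRBJ1-2 2 and TRBJ1-5 0. A whole J end, or the loss of a single residue of it, was common among all node entries. The shares were 62.7% and 32.7% for TRBJ1-2 and 60.4% and 34.8% for TRBJ1-3. For TRBJ1-4 they were 38.3% and 38.9%, and for TRBJ1-5 36.1% and 37.3%. The most widely listed entries, named with their V segment, all carry such an end, which is therefore not particular to them. None of them was listed in a heart.
TRBJ1-2 with TRBV20: GARQGANSDYT
TRBJ1-2 with TRBV20: GARQANSDYT
TRBJ1-2 with TRBV4: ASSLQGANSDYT
TRBJ1-3 with TRBV5: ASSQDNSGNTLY
TRBJ1-3 with TRBV5: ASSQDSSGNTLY
TRBJ1-3 with TRBV20: GARDNSGNTLY
TRBJ1-4 with TRBV5: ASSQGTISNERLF
TRBJ1-4 with TRBV5: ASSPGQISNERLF
TRBJ1-4 with TRBV4: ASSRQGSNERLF
TRBJ1-5 with TRBV4: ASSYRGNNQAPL
TRBJ1-5 with TRBV4: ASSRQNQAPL
TRBJ1-5 with TRBV4: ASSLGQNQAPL
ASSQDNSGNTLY held 0.0250% ± 0.0106 of node reads on average and between 0.0128% and 0.0433% in single nodes. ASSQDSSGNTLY, also made with TRBV5, held 0.0186% ± 0.00910. GARQGANSDYT, made with TRBV20, held 0.00368% ± 0.00234. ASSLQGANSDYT was listed in 15 nodes and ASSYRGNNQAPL, the most widely listed TRBJ1-5 entry, in 14.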

How the data were processed

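Beta chain transcripts were amplified by multiplex PCR and sequenced on an Illumina HiSeq, per the labels' protocols. The deposited tables hold unnormalised counts, whole reads per CDR3, V and J, per library. For the aligner, error correction and genome build, nothing was found in the labels or headers, and no coordinates are printed. Node libraries held 7534295 to 9235800 reads and 12117 to 76692 entries of the 4 segments, and heart libraries 2426715 to 5126910 reads and 754 to 1572 such entries.

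Reads were summed per J segment and per V-J pair. EdgeR 4.0.16 in R 4.3.3 (quasi-likelihood test, robust, legacy settings, library total as offset) tested features that had reads in 3 or more libraries and a sum of at least 20, with Benjamini-Hochberg adjustment at 0.05 over all features. The 16 nodes shared a fit, and hearts and MI nodes had their own. The pairing index used expected reads, at least 0.5, as offset. Alternatives included DESeq2 1.42.0, TMM factors, distinct entries, entries with at least 10 reads, leaving out the 100 most abundant CDR3s, each library left out and sample numbers as a block. The code recovered known changes in simulated data. SciPy 1.17.1 was used for intervals.

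Same-numbered hearts and MI nodes deviated together (r from 0.168 to 0.222 across CDR3s in all 3 pairs, different numbers -0.145 to -0.0423), so these numbers were taken to pair the samples. No other groups did.

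The segments, lists and tests were chosen with earlier results of these data known. Named V segments were the highest and lowest pairing ratios and the highest correlations, and named pairs the calls with the smallest p, up to 8, or otherwise the 4 smallest p. Named CDR3s were the leading heart entries and the entries listed in most nodes.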

Additional observations from a re-analysis of the deposited data

Results flagged for a closer look

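In the sham nodes, TRBJ1-2 held 4.83% of reads in sham node 1 and 4.22% to 4.28% in the other 3, a gap wide for the range of the group. In the adjuvant nodes, 58.9% of TRBJ1-3 entries kept the whole J end in adjuvant node 3, against 61.0% to 61.3% in the other 3. These were the 2 of 48 groups of 4 in which a library stood apart, and chance would mark about 1 in 20.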

How the results depend on the processing

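Of the counts of called segments and pairs, 263 recomputed values stayed within 1.5 times the reported one and 28 did not; of the values named singly, 1126 kept direction and call, 41 lost and 12 gained the call and 39 changed sign. The causes were not tested, except that leaving out libraries or reads leaves fewer data. The counts that follow are of the 4 segments and their pairs. Where no share of all features stands beside a count, it describes dependence on the settings and no trait of these segments. Between MI and sham nodes 1 segment was called by DESeq2, 1 by edgeR without legacy settings, and 0 to 3 with each library left out (3 without sham node 1, 1 without MI node 1). After myosin 1 segment was called over distinct entries. Between sham and adjuvant nodes 12 V-J pairs were called over distinct entries and 14 to 23 with each library left out (14 without sham node 4), and for the pairing index 1 without legacy settings, 5 over distinct entries and 0 to 1 with each library left out. Between hearts and MI nodes 12 V-J pairs were called without legacy settings, 1 over distinct entries, 0 with the replicate block and 0 to 36 with each library left out (0 without any MI node, where 21 of the 22 pairs had too few libraries to be tested, and 36 without heart 3). For the pairing index the counts there were 11, 0 and 0 in the same order, 9 without entries under 10 reads, 11 with at least 10 expected reads (added after seeing the data) and 0 to 28 with each library left out (28 without heart 3; without an MI node none of the 17 was still tested).

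Changes of sign in log2 fold changes were mostly of values near 0 that passed no test. Over distinct entries they were 0.0022 (TRBJ1-3) and -0.012 (TRBJ1-4) after myosin, 0.034 (TRBJ1-2) and 0.013 (TRBJ1-4) after heart extract, 0.0080 (TRBJ1-3) and 0.0029 (TRBJ1-4) for both antigens, 0.26 (TRBJ1-5) in sham against adjuvant nodes, which passed, and -0.022 (TRBJ1-4) in hearts. For TRBV4-TRBJ1-2 in MI nodes and TRBV20-TRBJ1-3 after heart extract they were -0.0035 and 0.0047. Without the 100 most abundant CDR3s they were 0.0018 (TRBJ1-3) and 0.0056 (TRBJ1-4) for both antigens and -0.42 (TRBJ1-4) in hearts. With TMM factors they were -0.020 (TRBJ1-4, myosin), -0.0018 (TRBJ1-3, heart extract) and 0.031 (TRBJ1-3, hearts), and with DESeq2 -0.024 (TRBJ1-4, myosin) and 0.029 (TRBJ1-3, hearts). With each library left out, TRBJ1-4 ran from -0.017 to 0.025 after myosin. After heart extract TRBJ1-2 ran from -0.059 to 0.0047, TRBJ1-3 from -0.032 to 0.044 and TRBJ1-4 from -0.060 to 0.040. For both antigens TRBJ1-3 ran from -0.032 to 0.013 and TRBJ1-4 from -0.029 to 0.021. In hearts TRBJ1-2 ran from -0.48 (without heart 3) to 0.67, TRBJ1-3 from -0.31 to 0.10 (without heart 2) and TRBJ1-4 from -0.0801 (without heart 2) to 0.29. TRBD1 differences from TRBJ2 with motifs of 2 residues were -0.476, -2.75 and -0.215 percentage points in TRBJ1-2, TRBJ1-3 and TRBJ1-5.

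With the replicate block TRBJ1-4 after myosin was -0.038 and TRBJ1-3 after heart extract -0.002335; numbers pair only hearts with MI nodes, where the block ended every pair call and changed no call of a segment. Groups of 2 to 4 libraries limit the node comparisons. In hearts, 5000 cells limit what can be seen of a rare pair. How many entries are PCR or sequencing errors was not tested.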
